A study of Homo sapiens with 10 samples.

Results

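The DEAD and DEAH box helicases are the mRNAs described here, as RNA bound to FLAG-tagged eIF4A. The members are the gene symbols that start with DDX or DHX followed by a number, and 56 of the 39472 symbols in the count files fit, 40 of them DDX and 16 DHX. Another 9 symbols with the same start, such as antisense and pseudogene-family names, were left out. DDX12P, whose 113 counts lay in the pseudogene class, fits the naming rule and was kept among the members. HEK 293T cells, an established line from human embryonic kidney, received 20 nM silvestrol, 20 nM CR-1-31-B or vehicle (DMSO) for 1 h and were then crosslinked with ultraviolet light of 254 nm at 400 mJ/cm2. An anti-FLAG antibody was then used to collect the crosslinked RNA fragments for sequencing (eCLIP), with 3 libraries each for silvestrol, CR-1-31-B and DMSO, and 1 input library was made without antibody. All groups share the cell line and the crosslinking, and the labels do not give the treatment of the input cells or say whether the numbered libraries came from separate cultures. P-values therefore measure the spread between these libraries, which may be technical.

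DEAD and DEAH box proteins, named for a sequence motif, use ATP to unwind RNA duplexes or to strip proteins from RNA, and they serve splicing, ribosome assembly, export, translation and decay. eIF4A, the protein pulled down here, is itself a DEAD box helicase, and it prepares mRNA 5' leaders for the ribosome. Silvestrol and CR-1-31-B belong to the rocaglates, small molecules known to hold eIF4A on RNA, with a preference for runs of purines (A and G). The members are thus mRNAs that encode relatives of the precipitated protein, and the values show where eIF4A was crosslinked on them, not the level or activity of the helicases.

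The sequences below show the longest purine run in the annotated 5' leader of 8 members, with the run in capitals, because purine runs are the feature for which rocaglates are known. The first 6 belong to leaders described below for their level or share with a rocaglate, and the last 2 to leaders with fold changes below 0. They come from GENCODE release 29 (GRCh38), 1 principal transcript a gene, which may not be the annotation behind the counts.
DDX6: tgattccgtgcAAGAGAGcaagttactgct
DHX9: gaaggctgatctGAAGAAGAcacttgaatc
DHX30: gaggaatagcAAGGAGAGAAttcagctcca
DDX39A: agcagcgcgcGGAGAAGAAcggggagccag
DDX1: tgtcagtcGGGAGGGAGGGAGcgagcaggc
DDX3X: gggaactGAGAGAGGAAGAAGAGtgaagcg
DDX5: AGAAGAAGGtgaggtcaagagagtgcagaa
DDX56: ccGGGAAGtgacttcgtctccgaagccgat
The DDX6 window lies at chr11:118786426-118786455 on the minus strand, the DHX30 window at chr3:47805347-47805376 on the plus strand and the DDX39A window at chr19:14419270-14419299 on the minus strand. The DDX1 window lies at chr2:15591880-15591909 on the plus strand, the DDX5 window at chr17:64506492-64506521 on the minus strand and the DDX56 window at chr7:44573973-44574002 on the minus strand. The windows of DHX9 and DDX3X cross an exon junction, and their runs span leader bases 93 to 100 and 332 to 347, counted from the transcript start.

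The libraries held 858733 to 1804732 counts with antibody and 2193699 in the input, of which the helicases took 3174 to 7984 counts (0.316% to 0.489%) and 7885 counts (0.359%). Of the markers of the labelled line, LIN28B, NEFL and NEFM had 59, 70 and 53 input counts, PAX2, SOX2 and SOX11 had 34, 9 and 1, the blood markers PTPRC, HBB and CD3E had 0, and the liver markers ALB and APOA1 had 1 each. Of the fibroblast markers COL1A2 and DCN had 0 input counts, but COL1A1, a collagen gene, had 143, more than any of the listed markers of the line, and its source was not tested. Of the 56 members, 54 had counts in the 5' leader, coding sequence (CDS) or 3'UTR, and DDX4 and DDX12P had none there. The filter on low counts kept 89 of the 168 helicase features (1 gene in 1 part), namely 28 leaders, 43 CDS and 18 3'UTRs. Of the 28 leaders kept, 13 passed the cutoff of 9.335 CPM (counts scaled to a common library size) in all 3 DMSO libraries and 2 in none, so a leader could pass the filter through its compound libraries alone. Members of the germ line (DDX4, DDX25, DDX43, DDX53) and of innate RNA sensing (DDX58, DDX60, DDX60L, DHX58) had no tested feature. Reads of the near-identical pairs DDX3X and DDX3Y, DDX19A and DDX19B, and DDX39A and DDX39B may have been split or dropped in counting. DDX39B had counts in its leader but none in its CDS or 3'UTR. DDX3Y had 9 CDS counts over the 9 anti-FLAG libraries and 0 in its leader and 3'UTR. Whether read similarity, the cell line or something else lay behind these low counts was not tested.

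DDX6 encodes a helicase that represses translation and promotes decapping, and its leader was the one helicase feature called in the edgeR fit to the 9 anti-FLAG libraries. Its leader held 87.9, 76.2 and 104 CPM in the silvestrol libraries, 55.5, 82.2 and 45.2 CPM in the CR-1-31-B libraries, and 27.4, 9.55 and 13.7 CPM in the DMSO libraries. Every library of either compound lay above every DMSO library, on 146, 67 and 82 counts with silvestrol, 84, 95 and 39 with CR-1-31-B, and 28, 9 and 12 with DMSO. The mean was 89.5 ± 14.2 CPM with silvestrol, 61.0 ± 19.1 CPM with CR-1-31-B and 16.9 ± 9.34 CPM with DMSO (SD, n = 3 each).

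With silvestrol the DDX6 leader rose 5.23-fold over DMSO, a log2 fold change of 2.39 (95% interval 1.47 to 3.30, edgeR quasi-likelihood test, adjusted p = 0.0170). It was the only one of 89 helicase features past an adjusted p of 0.05 in that comparison, against a background of 0.255% of all 24713 tested features and 0.857% of leaders called higher. With CR-1-31-B the log2 fold change was 1.84 (0.93 to 2.75, edgeR adjusted p = 0.0735), so no helicase feature was called, beside 0.291% of all features and 0.8% of leaders called higher. In the fit with the library number as a block the CR-1-31-B value passed (1.87, edgeR adjusted p = 0.0201), where 3.59% of leaders were called higher, as it did with DESeq2 (adjusted p = 0.00719, background 3.29%). For both rocaglates together the DDX6 leader was 4.32-fold higher (log2 2.11, SE 0.41, edgeR adjusted p = 0.0192), again the one helicase feature called, where 0.49% of all features and 1.39% of leaders were called. The 2 comparisons with DMSO share their 3 DMSO libraries. Without DMSO library 2 or 3 the call for both rocaglates was lost (edgeR adjusted p = 0.116 and 0.184), as the silvestrol call was (0.115 and 0.177), and also without silvestrol library 1 or 3 (0.102 and 0.0638). With each mRNA part scaled on its own, both calls were lost and the log2 fold changes were smaller, 1.94 with silvestrol, 1.41 with CR-1-31-B and 1.68 with both (edgeR adjusted p = 0.0809, 0.222 and 0.0657).

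**Figure D1:**
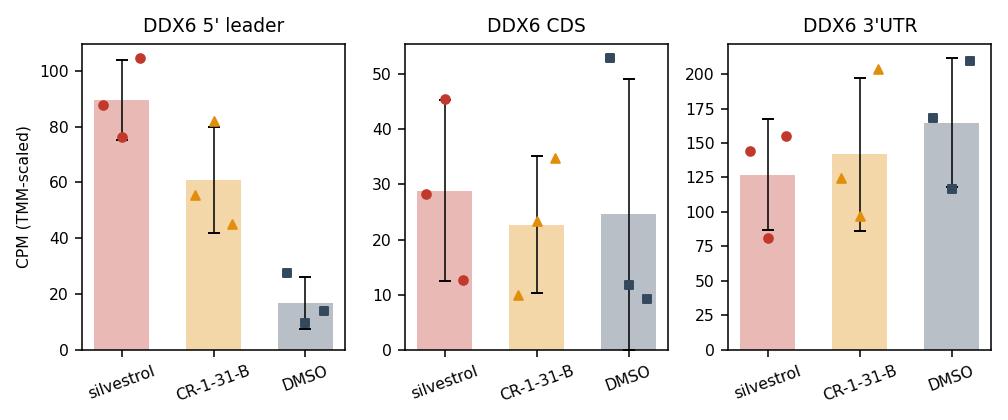
DDX6 levels (CPM, TMM-scaled) in the 5' leader, CDS and 3'UTR, 1 point a library, with bars at the mean and whiskers of 1 SD (n = 3 each); each panel has its own axis. All 6 rocaglate libraries lie above the 3 DMSO libraries in the leader, and the groups overlap in the CDS and 3'UTR.

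The DDX6 CDS and 3'UTR did not pass. The CDS held 28.8 ± 16.4 CPM with silvestrol, 22.7 ± 12.4 CPM with CR-1-31-B and 24.6 ± 24.5 CPM with DMSO, and the 3'UTR 127 ± 40.4, 142 ± 55.5 and 165 ± 46.5 CPM in the same order (SD, n = 3 each). The groups overlapped in both parts. As a share of DDX6's own leader, CDS and 3'UTR counts, the leader took 33.7%, 37.6% and 38.3% with silvestrol, 29.2%, 40.6% and 15.9% with CR-1-31-B, and 11.0%, 6.92% and 5.91% with DMSO. The lowest share with a rocaglate, in CR-1-31-B library 3, was above the highest with DMSO. In the input the share was 3.15% (95% exact interval 1.37% to 6.11%), and this interval, like the others here, covers counting error only.

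A test of the leader against the other parts of the same mRNA (edgeR diffSpliceDGE) removes any change in the mRNA's level, and it called no helicase leader, where 0.114% of leaders were called with silvestrol, 0.0649% with CR-1-31-B and 0.146% with both rocaglates. For DDX6 the adjusted p was 0.146 with silvestrol, 0.497 with CR-1-31-B and 0.0934 for both rocaglates (edgeR diffSpliceDGE). In the fit with the library number as a block it was 0.0328, 0.176 and 0.0264, and the DHX9 leader passed for both rocaglates as well (edgeR adjusted p = 0.0448), where 0.39% of leaders were called with silvestrol and 0.682% with both rocaglates.

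Among the 28 helicase leaders the median log2 fold change was 0.31 with silvestrol, 0.31 with CR-1-31-B and 0.36 for both, against 0.40, 0.35 and 0.36 over all 7122 tested leaders, and all of these medians were below 0 when each mRNA part was scaled on its own (helicases -0.14, -0.05 and -0.06, all leaders -0.04, -0.05 and -0.06). At an unadjusted edgeR p under 0.05, 6 of 28 helicase leaders were higher with silvestrol (background 16.6%), 7 with CR-1-31-B (15.4%) and 7 with both (18.0%), and none was lower. Every silvestrol library lay above every DMSO library in 4 of 28 leaders (DDX3X, DDX6, DDX18, DHX33; background 19.0%). Every CR-1-31-B library did so in 6 (DDX6, DDX39A, DHX9, DHX16, DHX30, DHX33; 15.9%), and all 6 rocaglate libraries in 2 (DDX6, DHX33; 8.4%). These shares are near the background, and DDX18 passed the filter on low counts through its silvestrol libraries alone.

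**Figure D2:**
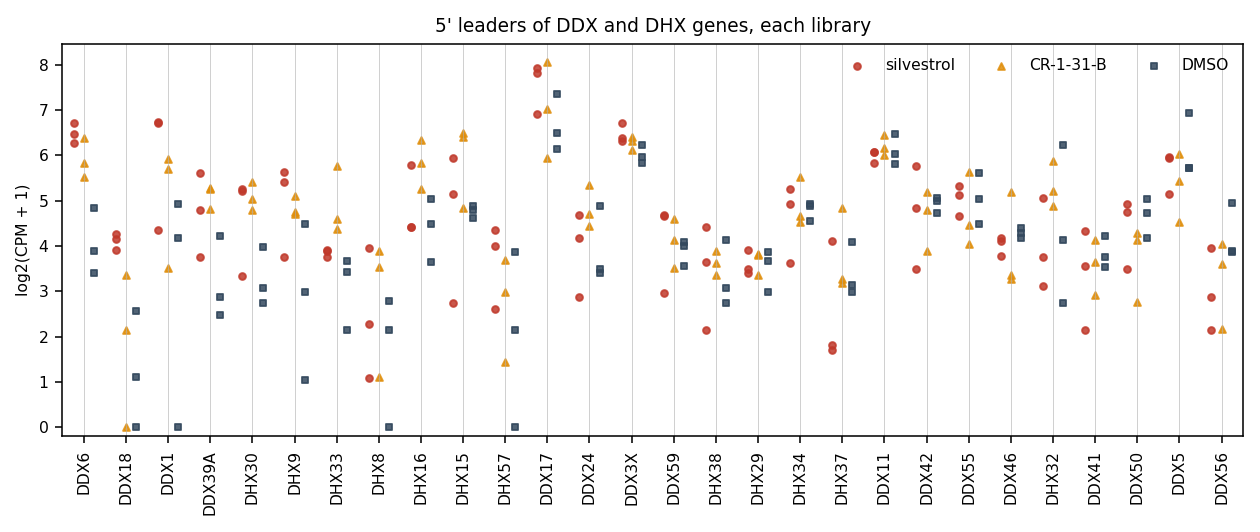
The 28 tested helicase leaders as log2(CPM + 1) in each library, ordered from the highest to the lowest log2 fold change for both rocaglates. DDX6 is at the left with its rocaglate and DMSO libraries apart, and for most of the others the groups overlap.

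Below DDX6 came a group of leaders that did not pass. DHX9 encodes a helicase that resolves double-stranded RNA and acts in transcription and splicing. Its leader held 41.6, 12.5 and 48.4 CPM with silvestrol, 25.8, 25.1 and 33.6 CPM with CR-1-31-B, and 21.5, 1.06 and 6.87 CPM with DMSO. The 3 CR-1-31-B libraries lay above all DMSO libraries, and silvestrol library 2 lay among them. The log2 fold change for both rocaglates was 1.63 (SE 0.61, edgeR adjusted p = 0.319).

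DHX30 encodes a helicase of the mitochondrial ribosome assembly pathway, made from a nuclear gene. Its leader held 36.1, 9.10 and 37.0 CPM with silvestrol, 31.7, 41.5 and 26.6 CPM with CR-1-31-B, and 14.7, 7.43 and 5.72 CPM with DMSO. As for DHX9, silvestrol library 2 was the one rocaglate library among the DMSO values. The log2 fold change was 1.68 for both rocaglates (SE 0.54, edgeR adjusted p = 0.194).

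DDX39A encodes a helicase of mRNA export and splicing. Its leader held 48.2, 12.5 and 26.8 CPM with silvestrol, 27.1, 38.1 and 37.1 CPM with CR-1-31-B, and 17.6, 6.37 and 4.58 CPM with DMSO. The log2 fold change was 1.71 for both rocaglates (SE 0.54, edgeR adjusted p = 0.193). DDX1, with roles in RNA and DNA repair complexes and tRNA ligation, had a wider spread. Its leader held 105, 19.3 and 103 CPM with silvestrol, 50.9, 59.7 and 10.4 CPM with CR-1-31-B, and 29.4, 0 and 17.2 CPM with DMSO. The log2 fold change was 1.83 (SE 0.68, edgeR adjusted p = 0.310), and without the filter on low counts it passed (1.89, edgeR adjusted p = 0.0122), as it did with silvestrol alone (2.33, edgeR adjusted p = 0.0028), where 1.66% and 1.19% of leaders were called higher.

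**Figure D3:**
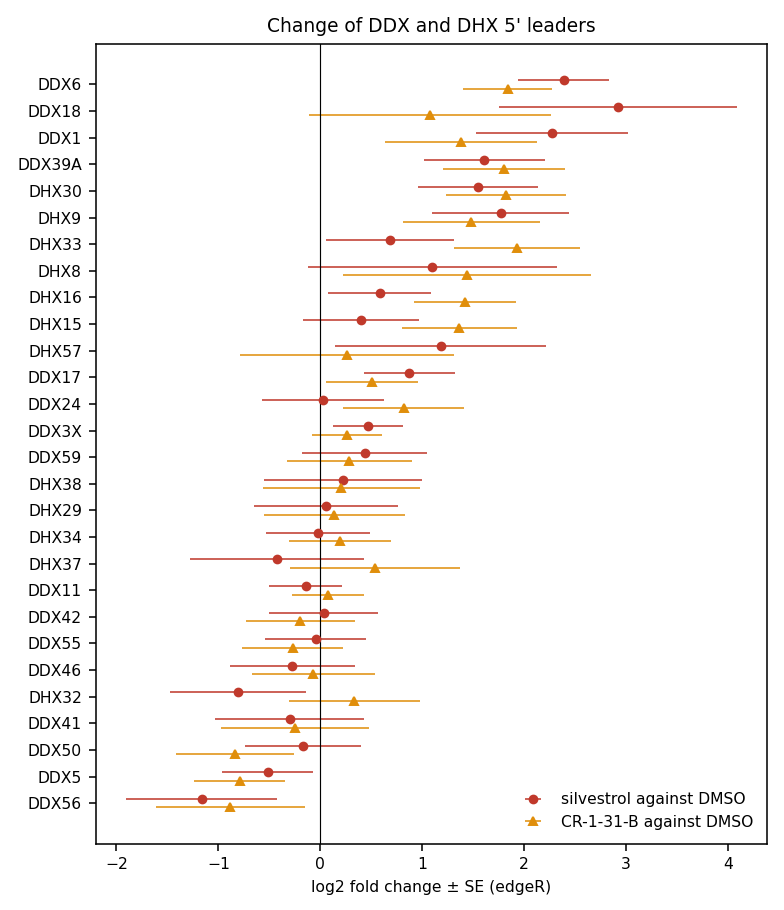
Log2 fold change (edgeR, ± SE) of each tested helicase leader with silvestrol (circles) and with CR-1-31-B (triangles) against DMSO, in the order of the mean of both. Both comparisons use the same 3 DMSO libraries; the DDX6 bars are the shortest among the 6 leaders at the top.

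DHX33 and DDX18 serve ribosome biogenesis. The DHX33 leader held 13.9, 12.5 and 14.0 CPM with silvestrol, 19.8, 53.6 and 23.2 CPM with CR-1-31-B, and 9.79, 11.7 and 3.43 CPM with DMSO. All 6 rocaglate libraries lay above DMSO, by a narrow margin with silvestrol, and the log2 fold change for both rocaglates was 1.31 (SE 0.56, edgeR adjusted p = 0.416). The DDX18 leader rested on 28, 16 and 11 counts with silvestrol, 14, 4 and 0 with CR-1-31-B, and 5, 0 and 1 with DMSO (log2 fold change with silvestrol 2.92, SE 1.17, edgeR adjusted p = 0.463). Only its silvestrol libraries passed the cutoff of 9.335 CPM. The leader was thus kept through the group in which it was high, and its fold change with silvestrol is subject to that selection.

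DDX3X encodes a helicase that helps initiation on structured leaders. Its leader held 104, 81.9 and 79.0 CPM with silvestrol, 78.7, 83.0 and 68.4 CPM with CR-1-31-B, and 74.4, 61.6 and 56.1 CPM with DMSO. Its CDS held 68.1, 33.0 and 52.2 CPM with silvestrol, 82.6, 110 and 63.7 CPM with CR-1-31-B, and 88.1, 110 and 88.2 CPM with DMSO. With silvestrol every library was above DMSO in the leader and below it in the CDS and the 3'UTR, against backgrounds of 19.0%, 8.64% and 10.9% for the 3 parts, while with CR-1-31-B the groups overlapped in all of them. The log2 fold changes with silvestrol were 0.46 in the leader, -0.89 in the CDS and -0.49 in the 3'UTR (edgeR adjusted p = 0.808, 0.508 and 0.799), so none was called.

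The leader share of DDX3X was 40.8%, 39.6% and 42.5% with silvestrol, 31.0%, 29.4% and 27.1% with CR-1-31-B, and 26.9%, 22.3% and 22.6% with DMSO. The 3 groups did not overlap. Over all 6160 genes with a tested leader and another tested part, 6.74% had every CR-1-31-B share below every silvestrol share, and 9.33% had every rocaglate share above every DMSO share. An exact permutation test of 3 against 3 libraries cannot give a two-sided p under 0.1. In the model across all genes the DDX3X leader, set against the rest of its mRNA, differed between CR-1-31-B and silvestrol by -0.49 on the log2 scale (edgeR diffSpliceDGE, unadjusted p = 0.243). The input share was 12.3%.

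**Figure D4:**
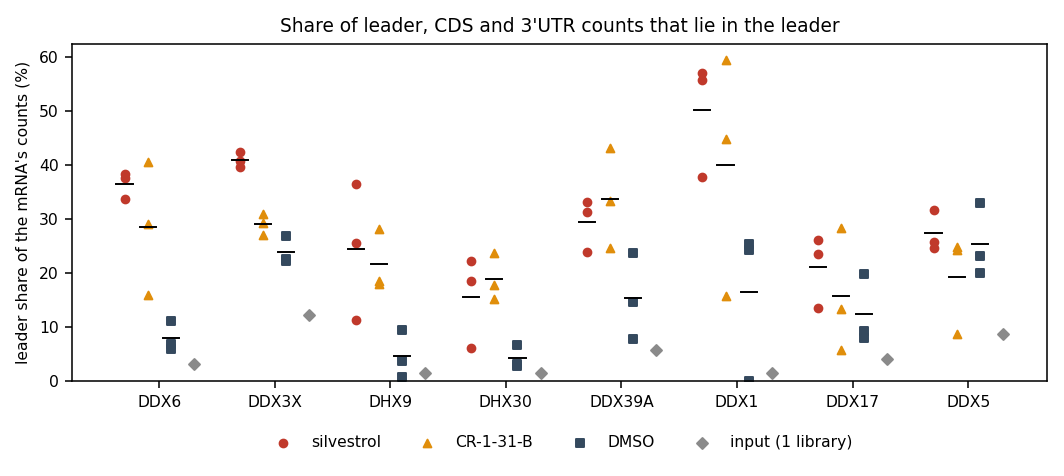
Leader counts as a percentage of the leader, CDS and 3'UTR counts of the same mRNA for 8 helicases, 1 point a library, with a line at the mean of each group (n = 3; the input is 1 library). DDX6, DDX3X, DHX9 and DDX39A have all 6 rocaglate libraries above the 3 DMSO libraries, and DDX5 and DDX17 overlap.

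Of the 26 helicases with such a share, 4 had every rocaglate library above every DMSO library (DDX3X, DDX6, DDX39A, DHX9; background 9.33%). With silvestrol alone there were 6 (background 21.9%) and with CR-1-31-B alone 7 (15.9%). The DHX9 share was 25.7%, 11.3% and 36.5% with silvestrol, 18.1%, 28.2% and 18.6% with CR-1-31-B, and 9.44%, 0.676% and 3.68% with DMSO. The DHX30 share was 18.5%, 6.11% and 22.3% with silvestrol, 15.1%, 23.8% and 17.7% with CR-1-31-B, and 6.61%, 3.21% and 2.81% with DMSO, so that silvestrol library 2 again overlapped DMSO.

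In DHX9 and DHX30 the fold change of the CDS was below 0 and that of the leader above it, and neither part passed. The DHX9 CDS held 113, 92.1 and 80.3 CPM with silvestrol, 110, 61.4 and 144 CPM with CR-1-31-B, and 194, 155 and 175 CPM with DMSO. The DHX30 CDS held 158, 140 and 129 CPM with silvestrol, 178, 131 and 124 CPM with CR-1-31-B, and 207, 224 and 197 CPM with DMSO. In both genes every rocaglate library lay below every DMSO library. The log2 fold changes for both rocaglates were -0.80 for DHX9 (SE 0.30, edgeR adjusted p = 0.317) and -0.54 for DHX30 (SE 0.27, edgeR adjusted p = 0.527), neither past the threshold.

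DDX46, a splicing helicase singled out after its values were seen, was the third of 43 CDS with this pattern, by a narrow margin between silvestrol library 1 and DMSO library 3, and 2.92% of all tested CDS had it. Its CDS held 52.4, 33.0 and 51.0 CPM with silvestrol, 45.0, 32.0 and 46.3 CPM with CR-1-31-B, and 84.2, 76.4 and 52.7 CPM with DMSO. No helicase CDS was called in any comparison, beside 0.0119% of CDS called higher and 0.0% lower with silvestrol, 0.155% and 0.0% with CR-1-31-B, and 0.226% and 0.0% with both. At an unadjusted edgeR p under 0.05, 3 of 43 CDS were lower with silvestrol (DDX3X, DHX8, DHX9; background 2.6%), 1 with CR-1-31-B (DDX52; 2.34%) and 2 with both (DDX46, DHX9; 3.44%). None of the 18 tested 3'UTRs reached it in either direction, beside 3.17%, 3.86% and 4.51% of all 3'UTRs in the same order of comparisons.

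**Figure D5:**
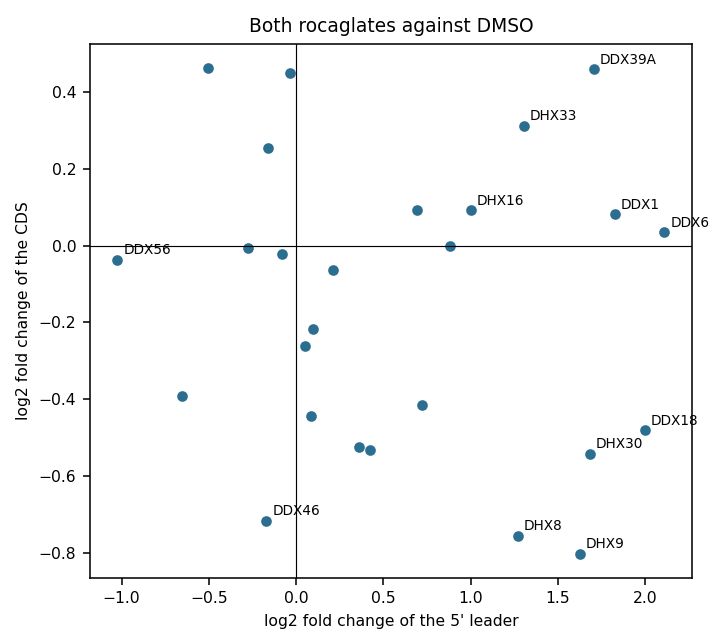
Log2 fold change of the 5' leader and of the CDS for both rocaglates against DMSO in the 26 helicases with both parts tested (1 point a gene; genes far from 0 are named). In 12 genes the leader was above 0 and the CDS below it, in 6 both were above, in 5 both were below, and in 3 the leader was below and the CDS above.

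By role, the call lay in the list for translation and mRNA decay in the cytoplasm, where 1 of 5 tested leaders, DDX6, was called with silvestrol (background 0.857%) and with both rocaglates (1.39%), and 0 of 5 with CR-1-31-B (0.8%). This is the DDX6 call given above, on a list drawn up with earlier results of these data known, and adds no separate support. The list's other tested leaders were DDX3X, DHX29, DHX34 and DHX57. DHX29, which helps the small ribosomal subunit through structured leaders, held 11.3 ± 2.37 CPM with silvestrol, 11.8 ± 2.21 CPM with CR-1-31-B and 10.7 ± 3.51 CPM with DMSO (SD, n = 3 each). DHX36, which unwinds G-quadruplexes, was tested in its CDS, at 29.3 ± 13.6, 48.6 ± 9.06 and 34.3 ± 18.1 CPM in the same order, with overlapping groups.

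Of the 15 splicing helicases 11 leaders were tested and 0 called by edgeR, where 1.39% of all leaders were called higher for both rocaglates. Their median log2 fold change for both rocaglates was 0.69 (range -0.65 to 1.71), beside 0.36 over all leaders. DDX5 and DDX17, paralogs that act in splicing and as coregulators of transcription, stood at different places in that range. The DDX17 leader had 1537 counts over the 9 anti-FLAG libraries, the most of any helicase leader, at 223, 243 and 120 CPM with silvestrol, 130, 265 and 60.3 CPM with CR-1-31-B, and 89.1, 161 and 69.8 CPM with DMSO (log2 fold change for both 0.69, SE 0.40, edgeR adjusted p = 0.607). The DDX5 leader held 60.8, 61.4 and 34.4 CPM with silvestrol, 64.1, 42.4 and 22.0 CPM with CR-1-31-B, and 121, 52.0 and 51.5 CPM with DMSO (log2 fold change for both -0.65, SE 0.38, edgeR adjusted p = 0.607). The groups overlapped in both genes.

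Of the 16 helicases of ribosome biogenesis 7 leaders were tested and 0 called by edgeR (background 1.39%). Their median was 0.05 (range -1.02 to 2.00), beside 0.36 over all leaders, and the difference between the roles was not tested. The lowest was DDX56, at 14.5, 3.41 and 6.37 CPM with silvestrol, 11.2, 15.6 and 3.48 CPM with CR-1-31-B, and 13.7, 29.7 and 13.7 CPM with DMSO. All 16 of their CDS were tested, with 0 called by edgeR, beside 0.226% of all CDS called higher and 0.0% lower for both rocaglates. The median of these CDS was -0.10, beside -0.09 over all CDS. DDX21, a nucleolar helicase of the list, had 63.2 ± 14.4 CPM in its CDS with silvestrol, 56.8 ± 18.4 CPM with CR-1-31-B and 81.0 ± 15.0 CPM with DMSO (SD, n = 3 each).

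Between the compounds, set against each other at the same dose and time, no helicase feature was called by edgeR, DESeq2 or limma voom, and none of all features was either (0.0%). By edgeR 1 of the 89 features had an unadjusted p under 0.05, the DHX33 leader, which was higher with CR-1-31-B (log2 difference 1.25, 95% interval 0.03 to 2.47). Over all 22247 features of the 3 parts, 2.54% reached that p in either direction. For the DDX6 leader the difference of CR-1-31-B from silvestrol was -0.55 on the log2 scale (95% interval -1.38 to 0.28), an interval that holds differences of over 2-fold as well as 0.

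Without compound, leaders were the part of the mRNA most above input, in the helicases as over all genes. All 3 DMSO libraries held at least 2-fold the input's CPM, here per total counts, in 14 of 29 leaders with at least 20 counts over DMSO and input, against a background of 53.4% of leaders, and in 0 of 45 CDS (6.35%) and 0 of 34 3'UTRs (3.63%). The leaders above input made up 48.3% of the helicase leaders, near that background. The 14 were DDX5, DDX6, DDX17, DDX19A, DDX21, DDX24, DDX42, DDX46, DDX50, DHX15, DHX29, DHX30, DHX37 and DHX38. The count was 8 leaders with CPM taken over the 3 mRNA parts (background 40.3%), 8 of 17 at a pooled count of at least 50 (62.7%) and 5 at 3-fold (37.8%). Without DMSO library 2 it was 18 leaders (61.8%), 1 CDS (DDX59; 9.61%) and 3 of the 3'UTRs (DDX31, DDX41, DHX37; 7.85%), features named after their values were seen. DDX17, on 53 input counts, had 84.9, 141 and 64.7 CPM with DMSO and 24.2 CPM in the input (95% exact interval 18.1 to 31.6). DDX6 had 26.1, 8.38 and 12.7 CPM with DMSO and 3.65 CPM in the input (1.57 to 7.19), and with 1 input library there is no test.

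Summed over all members, leaders took 24.8 ± 1.88% of the helicases' leader, CDS and 3'UTR counts with silvestrol, 23.3 ± 7.86% with CR-1-31-B and 17.0 ± 3.30% with DMSO (SD, n = 3 each), and 7.70% in the input (95% exact interval 7.12% to 8.31%). CR-1-31-B library 3, at 15.9%, lay within the DMSO range of 13.4% to 19.9%, and the other 5 rocaglate libraries lay above it. The same share over all genes was 37.9 ± 2.17% with silvestrol, 36.2 ± 6.40% with CR-1-31-B, 27.9 ± 2.07% with DMSO and 12.9% in the input. The mean share of the helicases was below that of all genes in each of these groups, a difference that was not tested.

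Annotated leader features were compared with the fold changes for 27 of the 28 tested leaders. DDX17 was left out, because the transcript chosen for it gave no usable leader, although another of its coding transcripts has a leader of 100 bases. Over these leaders the log2 fold change with silvestrol ranked with the percentage of purines at Spearman's rho 0.46, and at 0.38 with CR-1-31-B. Over all 6767 tested leaders with a usable annotated leader it was 0.25 and 0.23. For the longest purine run the values were 0.21 and 0.15 over the helicases and 0.16 and 0.17 over all leaders. These are descriptions, and the points share libraries and differ in depth and base composition.

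The DDX6 leader, 361 bases long, had 52.9% purines, and its longest purine run, shown above, was 7 bases. Of leaders within 20% of its length, 90.6% held a run at least as long, and over its 4 annotated coding transcripts the longest run was 7 to 8 bases. The longest run among the 8 sequences above was that of DDX3X, 16 bases, which 13.6% of leaders of like length reached, but its 20 transcripts gave 7 to 16. DDX39A had the most purines of the 27 leaders, 63.7%. Purine hexamers (AGAGAG, its shifted form GAGAGA, the repeat GAAGAA, and its shifted form AAGAAG) were searched on the transcript's strand with overlaps counted. They occurred 1 time in the DDX6 leader, 2 times in DHX9, 4 times in DDX3X, 5 times in DDX5 and 0 times in DDX1. At least 1 of them was in 31.9% of leaders of DDX6's length and 34.7% of leaders of DDX5's length.

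The partners of DDX6 in decapping and repression were looked at as well. Of 22 listed genes 16 leaders were tested and 0 called by edgeR for both rocaglates, where 1.39% of all leaders were called higher. Their median log2 fold change was 0.37, beside 0.36 over all leaders. With the library number as a block 2 leaders passed, LSM14A (1.21, edgeR blocked adjusted p = 0.0226), which binds DDX6, and CNOT1 (1.43, edgeR blocked adjusted p = 0.00651), the scaffold of the deadenylase. The LSM14A leader held 111, 114 and 96.8 CPM with silvestrol, 147, 122 and 93.9 CPM with CR-1-31-B, and 58.7, 30.8 and 58.4 CPM with DMSO. Every rocaglate library lay above every DMSO library, as in 8.4% of all leaders. Of 28 listed symbols of RNA and DNA helicases with other names, eIF4A genes among them, 13 leaders were tested. Of these 0 were called, against the same background of 1.39%, at a median of 0.48. With the block 1 passed, SNRNP200, the helicase that unwinds U4 from U6 in the spliceosome (1.94, edgeR blocked adjusted p = 0.00369). In the blocked fit 5.38% of all leaders were called higher for both rocaglates.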

How the data were processed

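The authors deposited read counts, 1 file a library, for each gene symbol in the 5' leader, CDS, 3'UTR and 4 classes of other RNA, per the file headers. The submitters' processing notes name cutadapt for trimming and Bowtie 1.1 for alignment. The build, annotation, counting rule, use of strand and handling of PCR duplicates are not given in the sources used here, so counts shared with overlapping genes or near-identical copies are uncertain. Each file's blank line held 0 counts and was left out.

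The 9 anti-FLAG libraries were fitted with edgeR 4.0.16 (R 4.3.3) on all features (filterByExpr, TMM, quasi-likelihood test, Benjamini-Hochberg adjustment over 24713 features, threshold 0.05), and helicase rows were read from that table. diffSpliceDGE tested each leader against its mRNA. CPM use TMM-scaled library sizes, except against the input. Both steps were run on simulated counts with known changes. How often diffSpliceDGE finds changes of the size seen here is not given. Alternatives were other scaling (also per part), no filter, DESeq2 1.42.0, limma 3.58.1, a block for the library number, and leaving out libraries. The members, gene lists and tests were chosen with earlier results of these data known. Named genes were those called or shifted (without or with the block), the 3 highest and 3 lowest of each part, the 2 with most counts of each role, DDX3X, DDX6, DHX9, DHX29, DHX36, and the near-identical pairs.

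Libraries of 1 group differed by more than sampling noise, with a chi-square of 3.97 to 9.07 per degree of freedom. Deviations from the group means correlated at 0.102 to 0.263 for the 9 pairs of the same number and at -0.203 to 0.0163 for the other 18. The main fits held the group alone and left this likeness out. Only the alternative fits with the library number as a block took it into account. The labels state no pairing.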

Additional observations from a re-analysis of the deposited data

How the results depend on the processing

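The count of helicase features called was 1 with silvestrol, 0 with CR-1-31-B and 1 with both rocaglates, and DDX6 was the member in each case. It was 0 with silvestrol and 0 with both rocaglates when each mRNA part was scaled on its own. Without the filter on low counts it was 2 (DDX1 added), 1 and 2. For CR-1-31-B it was 1 with DESeq2 and 1 with the library number as a block. Leaving out 1 library at a time gave 0 to 1 in each of the 3 comparisons. Helicase leaders shifted against their mRNA numbered 1 with silvestrol and 2 with both rocaglates under the block, against 0 and 0 without it. The block changed no other helicase call.

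Over all features the count called was 63 with silvestrol, 72 with CR-1-31-B, 121 with both and 0 between the compounds. It was 16, 36 and 66 with each part scaled on its own, 215, 225 and 320 without the filter, 280, 328 and 533 with DESeq2, and 316, 365 and 505 with the block. Leaving out 1 library gave 4 to 100 with silvestrol, 0 to 226 with CR-1-31-B and 7 to 287 with both. Between the compounds it was 7 without the filter and 1 with the block. The cause of these changes was not tested.

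The median log2 fold change of helicase leaders was -0.14 with silvestrol and -0.065 with both rocaglates with each part scaled on its own, against 0.31 and 0.36. As a median of each member's own share, the leader share was 28.4% with silvestrol and 21.2% with DMSO, against summed shares of 24.8% and 17.0%. Helicase features above input numbered 14, all of them leaders. They were 8 with CPM taken over the 3 mRNA parts, 8 at a pooled count of at least 50 and 5 at 3-fold, again leaders alone. With 1 DMSO library left out they were 14 to 22, of which 14 to 18 were leaders, 0 to 1 CDS and 0 to 3 3'UTRs.

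Some uncalled fold changes turned sign. With each part scaled on its own, DDX3X gave 0.18 in the 3'UTR and -0.12 in the leader with CR-1-31-B and -0.054 in the leader with both rocaglates, and the DDX6 3'UTR gave 0.024 with CR-1-31-B. With limma voom the DDX41 3'UTR gave 0.57 with CR-1-31-B and 0.10 with both, and the DHX37 3'UTR -0.075 with silvestrol. With the block the DHX37 3'UTR gave -0.094 with silvestrol and the DDX6 CDS 0.057 with CR-1-31-B.

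Leaving out 1 library at a time gave these ranges of log2 fold change for uncalled features. With CR-1-31-B they were -0.11 to 0.97 for the DDX17 leader, -0.15 to 2.83 for the DDX18 leader, -0.11 to 1.20 for the DDX27 CDS, -0.23 to 0.018 for the DDX3X 3'UTR, -0.34 to 0.017 for the DDX3X CDS, -1.10 to 0.82 for the DDX41 3'UTR, -0.56 to 0.024 for the DDX6 3'UTR, -0.58 to 1.13 for the DDX6 CDS and -0.52 to 0.13 for the DHX8 CDS. With silvestrol they were -0.022 to 0.72 for the DDX39A CDS, -2.05 to 0.31 for the DDX41 3'UTR, -0.40 to 0.17 for the DDX50 leader, -0.36 to 0.93 for the DDX50 CDS, -0.38 to 0.039 for the DDX52 CDS, -0.71 to 0.079 for the DDX5 leader, -0.22 to 1.52 for the DDX6 CDS, -0.089 to 1.01 for the DHX16 leader and -0.46 to 0.41 for the DHX37 3'UTR. With both rocaglates they were -1.37 to 0.56 for the DDX41 3'UTR and -0.35 to 1.32 for the DDX6 CDS.

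Depth limits the weaker members. DMSO leaders held 9 to 28 counts for DDX6 and 0 to 5 for DDX18, and 15 of the 28 tested leaders were under the cutoff in at least 1 DMSO library.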
